A study of Mus musculus with 3 samples.

Results

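The kinesin genes encode the motor proteins that move along microtubules, and they were taken from the mouse annotation as every protein-coding gene whose symbol is Kif followed by a number and an optional letter, or Kifc1 to Kifc3. The rule found 40 of 22367 protein-coding genes of GENCODE M1, which is drawn on genome build mm9. From general knowledge, 13 of them were placed in a mitotic class of spindle and cytokinesis motors and 15 in a transport class of vesicle and organelle motors. The remaining 12 work mostly in cilia, trim microtubule ends or have atypical motor domains. The series mapped the transcription factors FLI1 and RUNX1 by ChIP-seq in mature megakaryocytes (MKs), the cells that release platelets. The cells were wild-type, of strain CD1, and grown for 5 days from fetal liver that the labels date to embryonic day 15. All groups share this origin, and they consist of 1 library for FLI1, 1 for RUNX1 and 1 of input DNA, the chromatin before any antibody was added. Each ChIP library pooled the DNA of at least 3 precipitates, so no spread between precipitates can be seen, no test between libraries was possible, and all intervals below are exact 95% intervals (Clopper-Pearson) that cover counting error only.

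Kinesins convert ATP into steps along microtubules, most of them toward the plus end. Transport kinesins carry vesicles, mitochondria and membrane proteins, whereas mitotic kinesins separate spindle poles, align chromosomes and build the midzone where the cell divides. MKs enlarge by endomitosis, in which chromosomes are copied and a spindle forms but the cell does not divide, and later they push out long microtubule-filled proplatelets along which granules are moved. FLI1 belongs to the ETS family, which recognizes a GGAA core in DNA, and RUNX1 recognizes TGTGGT and close variants. Both factors are needed for normal MK maturation.

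The authors deposited positions of mapped reads, and 62946422 FLI1, 3973856 RUNX1 and 21745220 input reads on nuclear chromosomes were counted here, each moved to the centre of its fragment. Both ChIP files hold fewer reads than the uniquely mapped ones that the study lists. The RUNX1 file is by far the shallowest, so its values for single genes are wide. The methods and the labels disagree on the embryonic day, the amount of DNA, the kit and whether the input was cut by micrococcal nuclease or sonicated. All ratios to input carry that uncertainty. In the window of 2 kb to either side of the transcription start site (TSS), FLI1 over input had a median of 2.65 over 7 MK markers, with 5.50 at Itga2b, the integrin that marks the lineage, and 4.25 at Pf4. The medians were 1.39 over 4 erythroid markers, 1.18 over 4 granulocyte and monocyte markers, 0.859 over 3 lymphoid markers and 1.01 over 4 hepatocyte markers. In these lists 6, 3, 2, 1 and 0 markers had a FLI1 peak summit in the window, and the contribution of residual cells of other lineages to the kinesin values was not tested.

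FLI1 reads over input were higher at the start sites of mitotic kinesins than at those of transport kinesins. Over the 40 genes this 4-kb window held 83 to 411 FLI1 reads (median 194.5), 3 to 19 RUNX1 reads (median 8) and 21 to 75 input reads (median 42), so that all members passed the minimum of 5 input reads. Median FLI1 reads were 229 in the mitotic, 179 in the transport and 135.5 in the other class. Median input reads were 34, 44 and 44, so lower input as well as more FLI1 reads enters the mitotic ratios. After scaling to library depth, the median FLI1 over input was 2.18 in the mitotic class, 1.36 in the transport class and 1.27 in the other class, beside 1.28 over all 21575 genes measured. Of the members, 22 reached 1.5-fold, namely 11 of 13 mitotic, 6 of 15 transport and 5 of 12 other kinesins, beside 40.5% of all genes. The lower bound of the interval was above 1 at 12 mitotic, 7 transport and 6 other kinesins, beside 42% of all genes. With the reads of each class summed, the ratio was 2.25 (2.04 to 2.49) for mitotic, 1.54 (1.41 to 1.68) for transport and 1.31 (1.19 to 1.44) for other kinesins, and the interval of the mitotic class did not overlap those of the other classes. The summed ratio over all genes was 1.50, close to that of transport kinesins. Genes of a class are not replicates, and these intervals say nothing of how another MK culture would vary.

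**Figure D1:**
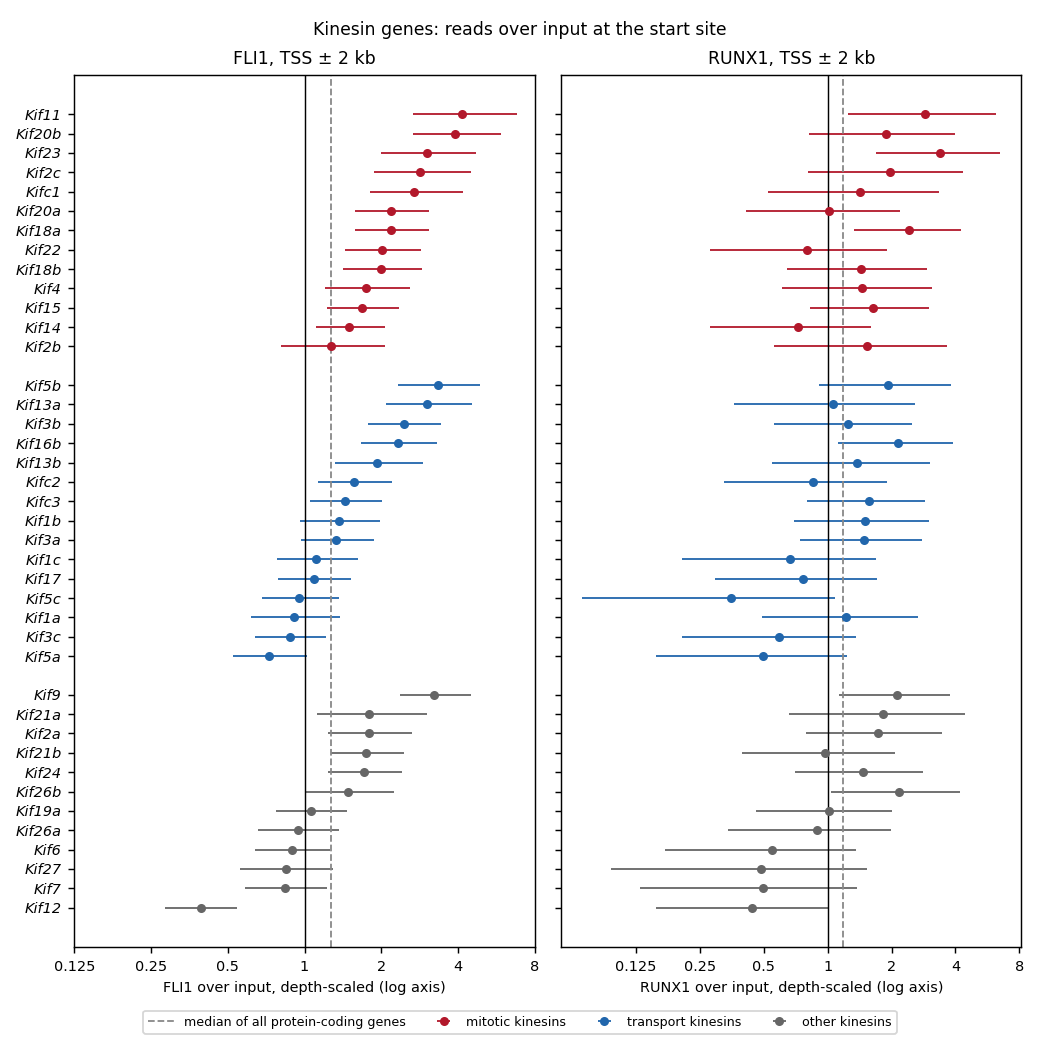
Depth-scaled ratio of FLI1 (left) and RUNX1 (right) reads to input within 2 kb of the TSS of each of the 40 kinesin genes, on log axes, with points coloured by class and bars giving the exact 95% counting interval. The solid line is a ratio of 1 and the dashed line the median of all protein-coding genes (1.28 for FLI1, 1.18 for RUNX1). For FLI1 all 13 mitotic points lie above 1, whereas the transport points run from 0.729 to 3.33, and for RUNX1 the intervals are wider.

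FLI1 over input was also compared within promoters of like CpG content. Promoters were called CpG-rich when the 500 bp to either side of the TSS had over 50% GC and an observed over expected CpG ratio above 0.6, a class defined after the values were seen. The median FLI1 ratio was 1.86 over all CpG-rich genes and 0.990 over the rest. With the reads summed, CpG-rich genes had a ratio of 1.98. CpG-rich promoters were found at 11 of 13 mitotic, 13 of 15 transport and 8 of 12 other kinesins. Within these the median ratio was 2.19, 1.36 and 1.73, so that the other class lay above the transport class, unlike over all members. At 1.5-fold or more stood 21 of 32 CpG-rich kinesins, about the same share as the 6426 of 9818 CpG-rich genes. By class these were 11 of 11 mitotic, 5 of 13 transport and 5 of 8 other kinesins. The part of CpG content in the differences between classes was not tested.

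Among mitotic kinesins the highest ratio was at Kif11, whose motor slides spindle microtubules apart and separates the poles. Its window held 252 FLI1, 11 RUNX1 and 21 input reads, a FLI1 ratio of 4.15 (2.65 to 6.82). Kif20b, a motor of cytokinesis, held 328 FLI1, 10 RUNX1 and 29 input reads, a ratio of 3.91 (2.67 to 5.93). Kif23, the motor subunit of the centralspindlin complex that bundles midzone microtubules, held 227 FLI1, 16 RUNX1 and 26 input reads and had a ratio of 3.02 (2.00 to 4.72). These 3 intervals overlap each other and all lie above the median of all genes. The input reads of Kif11 and Kif23 were among the lowest of the 40 genes, and FLI1 reads alone put Kif20b first in the class.

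Kif2c, a microtubule depolymerase at centromeres, came next at 2.85. Kifc1, a minus-end motor that focuses spindle poles, held 211 FLI1, 7 RUNX1 and 27 input reads, a ratio of 2.70. Kif20a, Kif18a, Kif22, Kif18b, Kif4 and Kif15 lay between 1.68 and 2.19. Kif14, a motor of cytokinesis, fell just short of 1.5-fold, with 230 FLI1, 7 RUNX1 and 53 input reads and a ratio of 1.50 (1.11 to 2.06). Kif2b, a close relative of Kif2c, was the exception, with 92 FLI1, 7 RUNX1 and 25 input reads, a ratio of 1.27 (0.810 to 2.06), no CpG-rich promoter and its nearest FLI1 summit 309912 bp away.

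A FLI1 peak, called where reads exceeded the highest of the genome-wide and local input rates at a Poisson p under 1e-05, had its summit within 2 kb of 12 of the 13 mitotic TSSs, all but that of Kif2b. The same held for 10 of 15 transport and 5 of 12 other kinesins, 27 of 40 in all, beside 44% of all protein-coding genes. Among CpG-rich genes the counts were 11 of 11, 9 of 13 and 4 of 8, beside 72.4% of all CpG-rich genes. With FLI1 thinned to the RUNX1 depth by a random draw made once, the counts over all members were 2, 3 and 1, beside 12.9% of all genes. The peaks of 7 mitotic kinesins other than Kif20a, which is not shown, held the ETS hexamer CCGGAA within 50 bp of the summit. That of Kif4 lies in an exon, 196 bp downstream of the TSS. The promoter summits of Kifc1, Kif18a, Kif18b and Kif23 lacked this hexamer. The stretches around the hexamer are printed for the other 6, which were chosen for holding it. They are read on the strand on which the hexamer reads CCGGAA, with the hexamer in capitals. All 6 lie outside annotated exons and upstream of the kinesin TSS, with the hexamer centred 374 bp upstream at Kif11, 41 bp at Kif20b and at Kif2c, 122 bp at Kif22 for the nearer of its 2 hexamers, 328 bp at Kif15 and 1670 bp at Kif14.
Kif11 (mm9 chr19:37450496-37450541, plus strand): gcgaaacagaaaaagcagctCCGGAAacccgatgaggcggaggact
Kif20b (mm9 chr19:34996784-34996829, plus strand): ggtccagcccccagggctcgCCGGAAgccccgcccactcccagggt
Kif2c (mm9 chr4:116855262-116855307, minus strand): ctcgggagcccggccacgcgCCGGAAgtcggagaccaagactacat
Kif22 (mm9 chr7:134186033-134186078, minus strand): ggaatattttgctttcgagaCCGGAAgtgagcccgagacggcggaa
Kif15 (mm9 chr9:122859848-122859893, plus strand): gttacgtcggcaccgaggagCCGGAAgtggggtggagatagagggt
Kif14 (mm9 chr1:138362842-138362887, minus strand): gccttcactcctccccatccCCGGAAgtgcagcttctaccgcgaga

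The peak of Kif20b was the strongest of the class, with 182 FLI1 reads at a summit 38 bp upstream of the TSS, where 8.48 were expected. It ranked 924 of 42081 FLI1 peaks by p and held more reads than 95.5% of the 10998 summits within 2 kb of any coding TSS. Kifc1 had 144 reads 194 bp upstream and Kif18a, a motor that limits chromosome oscillations, had 126 reads 37 bp upstream. Kif22, a chromosome-bound motor, had 99 reads, and Kif2c had 94 reads 15 bp upstream. Kif14 had its only promoter summit 1691 bp upstream of the annotated TSS, with 89 reads. Kif11, first by its ratio, had 2 modest summits, 59 reads at 360 bp and 29 reads at 1372 bp upstream. The 5 mitotic promoter summits of Kif20a, Kif18b, Kif23, Kif4 and Kif15 that lay within 500 bp held 53 to 76 reads, beside a median of 54 over all summits within 2 kb of a coding TSS.

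Among transport kinesins the highest ratio was at Kif5b, the ubiquitous heavy chain of conventional kinesin, with 328 FLI1, 12 RUNX1 and 34 input reads and a ratio of 3.33 (2.34 to 4.89). Kif13a, which moves recycling endosomes, held 272 FLI1, 6 RUNX1 and 31 input reads, a ratio of 3.03. Kif3b, a subunit of the heterotrimeric motor of cilia and vesicles, held 312 FLI1, 10 RUNX1 and 44 input reads, a ratio of 2.45. Kif16b, an early endosome motor, followed at 2.33, and the lowest ratios were at Kif5a and Kif3c. Kif5a, a neuronal heavy chain, held 116 FLI1, 5 RUNX1 and 55 input reads, a ratio of 0.729. Kif3c, the neuronal partner of Kif3a, held 142 FLI1, 6 RUNX1 and 56 input reads, a ratio of 0.876. Kif5c and Kif1a were at 0.956 and 0.912. None of these 4 had a FLI1 summit within 2 kb of the gene's 5′ end, but Kif3c had a summit of 66 reads 1236 bp from another of its annotated starts. Within the heavy chain family the interval of Kif5b did not overlap those of Kif5a (0.524 to 1.02) and Kif5c (0.680 to 1.36). Kif1b, a motor of mitochondria and synaptic vesicles, held 158 FLI1, 11 RUNX1 and 40 input reads, a ratio of 1.36, but 0.859 at the start that most of its coding transcripts share. The remaining members, Kif13b, Kifc2, Kifc3, Kif3a, Kif1c and Kif17, lay between 1.08 and 1.93, and all but Kif17 had a summit, as did Kif1b.

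The strongest promoter peaks of Kif3b and Kif16b stood within 100 bp of the start site, whereas those of Kif5b and Kif13a lay farther from it. Kif3b had 172 reads 16 bp upstream, rank 1528 of 42081, and Kif16b had 121 reads 78 bp upstream. Kif5b had 84 reads 869 bp downstream of the gene's 5′ end, 165 bp from another annotated start, and Kif13a had 64 reads 846 bp upstream. Kif13a also had 158 reads 2529 bp upstream, outside the promoter limit. The hexamer CCGGAA was found at the summit of Kif16b but not of Kif3b, which has 2 GGAA cores within 50 bp of the summit. Both stretches are printed with the hexamer or core in capitals. The hexamer of Kif16b is centred 92 bp upstream of its TSS, and the stretch of Kif3b ends just past the summit and holds only 1 of its cores.
Kif16b (mm9 chr2:142727336-142727381, plus strand): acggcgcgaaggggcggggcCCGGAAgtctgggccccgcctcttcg
Kif3b (mm9 chr2:153117082-153117141, plus strand): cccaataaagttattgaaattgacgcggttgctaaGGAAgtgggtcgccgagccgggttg

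Among the other kinesins Kif9, a motor of motile cilia, stood first with 411 FLI1, 17 RUNX1 and 44 input reads, the most FLI1 reads of the 40 genes, and a ratio of 3.23 (2.36 to 4.51). Its summit of 189 reads lay 226 bp upstream, ranked 761 of 42081, and was nearer to the divergent gene Klhl18, whose start is 38 bp away. Of 2 CCGGAA hexamers within 50 bp of this summit the nearer, in capitals, lay between the starts of Kif9 and Klhl18, 212 bp upstream of Kif9.
Kif9 (mm9 chr9:110379227-110379272, plus strand): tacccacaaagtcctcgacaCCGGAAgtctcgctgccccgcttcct

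Kif21a, which restrains microtubule growth, held 109 FLI1, 7 RUNX1 and 21 input reads, a ratio of 1.79 without any summit within 2 kb. Kif2a, a depolymerase related to Kif2c, held 181 FLI1, 11 RUNX1 and 35 input reads, a ratio of 1.79, with a weak summit of 26 reads. Kif21b, Kif24 and Kif26b were at 1.75, 1.71 and 1.49, and Kif19a, Kif26a, Kif6 and Kif27 lay between 0.843 and 1.06. The lowest members were Kif7, a regulator of Hedgehog signalling in cilia, with 107 FLI1, 4 RUNX1 and 44 input reads, a ratio of 0.840, and Kif12 with 85 FLI1, 6 RUNX1 and 75 input reads, a ratio of 0.392 (0.284 to 0.541). Kif12 had the most input reads of all members and a FLI1 count near the lowest, and its promoter was not CpG-rich. Of this class 5 members had a FLI1 summit within 2 kb, Kif9, Kif21b, Kif24, Kif2a and Kif19a, and all but that of Kif9 held 26 to 45 reads.

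Mitotic kinesins were also the highest class when the input was not used. When the FLI1 reads within 500 bp of the TSS were set against those 1 to 2 kb away in the same library, a measure added after the data were seen, the median ratio was 5.07 over mitotic, 1.56 over transport and 1.25 over other kinesins, beside 1.36 over all genes and 2.40 over CpG-rich genes. At 1.5-fold or more stood 11 of 13 mitotic, 9 of 15 transport and 4 of 12 other kinesins, beside 46% of all genes and 68.1% of CpG-rich genes. The largest values were 9.89 at Kifc1, 8.97 at Kif9, 8.39 at Kif20b and 7.40 at Kif18a. Kif14, whose peak lies in the flank, was at 0.488, and Kif2b was at 0.809. Over the summed reads the mitotic class had 1668 FLI1 reads within 500 bp and 813 in the flanks, a ratio of 4.10 (3.77 to 4.47), the transport class 1028 and 1061, a ratio of 1.94 (1.78 to 2.11), and the other class 773 and 775, a ratio of 2.00 (1.80 to 2.21). The intervals of the transport and other classes overlap, and both ratios lie under the 2.21 of all genes and the 2.91 of CpG-rich genes. Input reads of the same windows gave 1.20 (0.948 to 1.51) for mitotic and 0.760 (0.613 to 0.936) for transport kinesins, beside 0.811 for CpG-rich genes, so that input was lower at the start sites of transport kinesins than in their flanks.

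**Figure D2:**
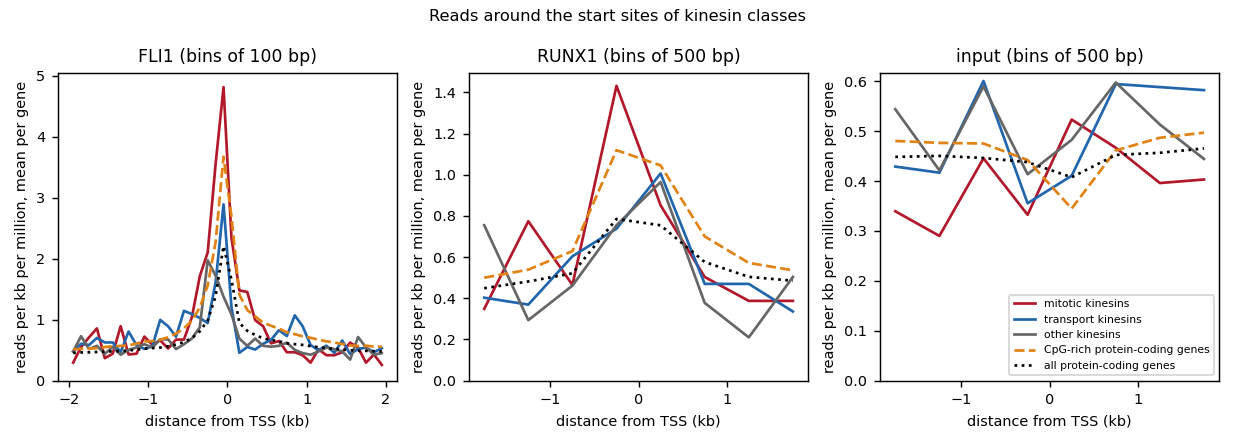
Mean depth-scaled reads per kb per gene (per 1000000 reads of the library) from 2 kb upstream to 2 kb downstream of the TSS, for FLI1 in bins of 100 bp and for RUNX1 and input in bins of 500 bp, over 13 mitotic, 15 transport and 12 other kinesins, CpG-rich genes and all protein-coding genes. The FLI1 profile of mitotic kinesins is the highest of the sets just upstream of the TSS, CpG-rich genes are above it in the first bin downstream, and it has smaller rises farther than 1 kb upstream, whereas the RUNX1 and input lines of the classes rest on few reads per bin.

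The 32 FLI1 summits within 2 kb of a kinesin TSS were not stronger than promoter summits in general, with a median of 56.5 reads beside 54. Of them, 27 lay upstream and 22 within 500 bp. CCGGAA or CAGGAA, searched on both strands, occurred within 50 bp of 18 summits (56.2%), beside 51.1% of the 10998 summits within 2 kb of a coding TSS, 57.2% of all 42081 FLI1 summits and 11.6% of windows 500 bp from the latter. CCGGAA alone occurred at 10 summits (31.2%), beside 30.2% of summits near a coding TSS and 14.1% of all FLI1 summits. CAGGAA occurred at 9 (28.1%), beside 25.1% and 46.1%, so that kinesin promoter summits held both hexamers about as often as promoter summits in general. Of the 10 members with the hexamer, 8 are mitotic (Kif11, Kif20b, Kif2c, Kif20a, Kif22, Kif4, Kif15 and Kif14), 1 is Kif16b and 1 is Kif9. Kif22 and Kif9 have 2 sites each. Taking the site nearest to the summit in each member, Kif20a left aside, the hexamer was followed by G in 8 of 9, as can be seen in all printed stretches but that of Kif11, beside 58.2% of the nearest CCGGAA at all FLI1 summits and 40.2% of those in promoters of genes without a FLI1 summit. In the promoter sequence itself, from 250 bp before to 50 bp after the TSS, CCGGAA was found in 6 of 13 mitotic (46.2%), 2 of 15 transport (13.3%) and 1 of 12 other kinesins (8.33%), beside 17.5% of all and 29.0% of CpG-rich promoters.

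**Figure D3:**
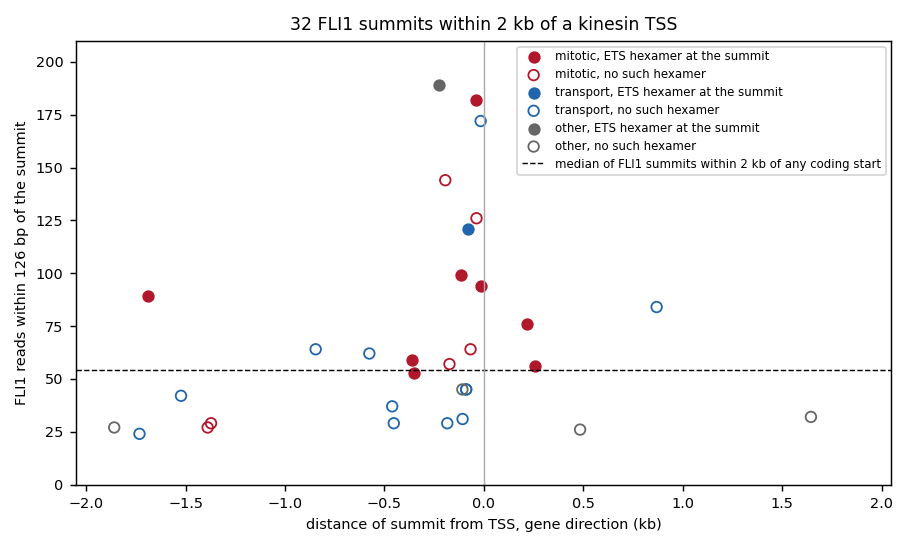
Each of the 32 FLI1 summits within 2 kb of a kinesin TSS by its distance from the TSS in the direction of the gene (kb) and its FLI1 reads within 126 bp, coloured by class and filled where the ETS hexamer CCGGAA lies within 50 bp. The 8 summits with 94 or more reads all lie within 226 bp of the TSS, and the dashed line is the median of 54 reads over all summits within 2 kb of a coding TSS.

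Some of these summits lie at the starts of other genes too. Another protein-coding gene starts within 1 kb of 9 members, in a divergent arrangement in 6 of them, and 5 of the 32 summits lay nearer to that start. They are at Kif4 with Pdzd11, Kif15 with 1110059G10Rik, Kifc2 with Cyhr1, Kif1c with Inca1 and Kif9 with Klhl18. The start of Brd8 lies 23 bp from that of Kif20a and the start of Mettl15 10 bp from that of Kif18a, where a read cannot be given to either gene. Counting only summits nearest to the kinesin's own start left 22 genes in place of 27.

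RUNX1 over input was also highest in the mitotic class, with far fewer reads and the same input reads as for FLI1. Without input, RUNX1 reads within 500 bp of the TSS over those 1 to 2 kb away gave 2.41 (1.62 to 3.59) for mitotic kinesins. The values were 2.21 (1.46 to 3.36) for transport and 1.95 (1.24 to 3.08) for other kinesins, and the 3 intervals overlap. Over CpG-rich genes this measure was 2.02. The median RUNX1 over input within 2 kb of the TSS was 1.53 over mitotic, 1.22 over transport and 0.993 over other kinesins, beside 1.18 over all genes. Median RUNX1 reads differed little, at 9, 8 and 7.5, whereas median input reads were 34, 44 and 44. Lower input thus enters the mitotic RUNX1 ratios. At 1.5-fold or more stood 7 mitotic, 4 transport and 4 other kinesins, 15 in all, beside 33.8% of all genes and 4894 of 9818 CpG-rich genes. With the reads of each class summed, the ratio was 1.61 (1.32 to 1.96) for mitotic, 1.11 (0.908 to 1.34) for transport and 1.08 (0.864 to 1.33) for other kinesins. It was 1.28 over all genes and 1.54 over CpG-rich genes, both close to or within the mitotic interval. The intervals of the mitotic and transport classes overlap at their ends, and transport and other kinesins cannot be told apart. Among CpG-rich members the medians were 1.63, 1.22 and 1.59, beside 1.49 over all CpG-rich genes. The other class thus lay close to the mitotic one, and both were near CpG-rich genes in general. The lower bound was above 1 at 6 members, beside 15% of all genes, namely Kif23 at 3.37 (1.69 to 6.52), Kif11 at 2.87 (1.25 to 6.22), Kif18a at 2.42, Kif26b at 2.16, Kif16b at 2.13 and Kif9 at 2.11. Of these, all but Kif26b also had a FLI1 summit within 2 kb, as did 27 of all 40 members and 72.4% of CpG-rich genes. At a median of 8 reads a moderate RUNX1 signal at a single kinesin gene was not detectable.

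RUNX1 peak summits were found in the territories of 3 members, a territory being the gene body and 20 kb to either side, beside 5.58% of all genes. At Kif23 the summit lay 46 bp upstream of the TSS with 7 reads, where 0.676 were expected, and a FLI1 summit of 57 reads lay 127 bp from it. At Kif9 it lay 21 bp downstream with 7 reads, 247 bp from the FLI1 summit, so both pairs are within the 300 bp that the methods take as shared occupancy. Each held 2 plus-strand and 5 minus-strand reads. The third, 8 reads in the territory of Kif1b, lay 121 bp from the start of Pgd and 140865 bp from that of Kif1b. Thus 2 members had a RUNX1 summit within 2 kb, beside 1.81% of all genes and 3.33% of CpG-rich genes. The summit of Kif23 was lost with a fragment length of 150 bp and both were lost at a p threshold of 1e-10, whereas 20 members had one when the smaller library was scaled up, a setting that called 184948 RUNX1 peaks in place of 997 and gave 42.2% of all genes a summit there. The RUNX1 file analysed here holds far fewer reads than the study lists for this library, so a kinesin gene without a RUNX1 summit here may hold one at greater depth. The stretch of Kif23 that spans its FLI1 and RUNX1 summits at the start site is printed from 200 to 21 bp before the TSS, with each GGAA core, on either strand, in capitals. It holds none of the ETS and RUNX hexamers that were searched, which were CCGGAA and CAGGAA for the former and TGTGGT and also TGCGGT for the latter.
Kif23 (mm9 chr9:61794627-61794806, minus strand): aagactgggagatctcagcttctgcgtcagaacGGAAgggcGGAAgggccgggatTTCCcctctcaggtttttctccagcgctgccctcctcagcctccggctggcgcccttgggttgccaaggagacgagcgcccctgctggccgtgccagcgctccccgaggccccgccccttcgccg

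RUNX1 reads were also counted at the FLI1 summits, whether or not a RUNX1 peak was called there. Within 150 bp of the 32 FLI1 summits near kinesin TSSs there were 53 RUNX1 reads, a ratio to input of 3.58 (2.48 to 5.12), beside 3.33 at all 10998 such summits. Without the summits of Kif23 and Kif9 it was 3.37 (2.27 to 4.96). Against RUNX1's own reads 1 to 2 kb from the summits, with no use of the input, it was 2.21 (1.59 to 3.04), beside 2.64 at all such summits, so that the order turned. By class the ratio was 3.95 (2.29 to 6.73) at 14 summits of mitotic and 4.06 (2.26 to 7.19) at 13 summits of transport kinesins, and these intervals overlap almost fully. At the 5 summits of other kinesins 4 RUNX1 reads gave 1.56 (0.375 to 4.98), which shows no excess at this depth. Against their own flanks the ratios were 2.88 (1.74 to 4.63), 2.25 (1.34 to 3.65) and 0.857 (0.220 to 2.42), with mitotic above transport kinesins and again with overlapping intervals. At the 101 other FLI1 summits in kinesin territories, some of which lie at the starts of other genes, the ratio to input was 1.99 (1.62 to 2.44). Against their own flanks it was 2.20 (1.80 to 2.69), almost the same as the 2.21 at the 32 summits near kinesin TSSs.

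Across whole territories FLI1 over input was under 1 at most transport and other kinesins and above 1 at 9 of 13 mitotic ones. Without the reads within 2 kb of other genes' starts, a setting added once the values were known, 7 of 13 mitotic, 2 of 15 transport and 2 of 12 other kinesins were above 1, and the mitotic median was 1.00. These counts above 1 were made for kinesins only. No share of all genes stands beside them, and they cannot be called high or low. The territories were 42.3 to 444 kb long (median 86.0) and did not overlap each other. The median FLI1 over input was 1.07 over mitotic, 0.870 over transport and 0.803 over other kinesins, beside 0.975 over all genes, and for RUNX1 it was 0.983, 0.860 and 0.819, beside 0.939. In reads per kb and per 1000000 reads of the library, median input was 0.461 in mitotic (Kif2c) and 0.529 in transport territories (Kif13a). By this measure median FLI1 was 0.488 (Kif18b) and 0.483 (Kif3c), and median RUNX1 was 0.431 (Kif18b) and 0.452 (Kif5c). Mitotic and transport territories thus differed more in input than in FLI1 or RUNX1 reads. The lower bound for FLI1 was above 1 at 9 members, beside 28.8% of all genes. They are 6 mitotic (Kif11, Kif18a, Kifc1, Kif2b, Kif20b and Kif22), 2 transport (Kif5b and Kif3b) and 1 other kinesin (Kif2a). The upper bound was under 1 at 3 mitotic, 11 transport and 8 other kinesins, 22 in all, beside 38.2% of all genes. For RUNX1 the lower bound was above 1 at 3 members, Kif18a, Kif2b and Kif2a, beside 11.6%, and the upper bound was under 1 at 19, 1 of them mitotic, 9 transport and 9 other, beside 25.2%.

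The only territory at 1.5-fold or more for FLI1 was that of Kif11, beside 1.98% of all genes. It held 3598 FLI1, 144 RUNX1 and 802 input reads, a FLI1 ratio of 1.55 (1.44 to 1.68). A FLI1 peak of 335 reads, 1 of 61 whose p was too small to be told from 0, lies in it 59451 bp from the Kif11 TSS and 885 bp from the start of Hhex, a homeobox gene of blood and liver development. Without the reads at other genes' starts the ratio of Kif11 was 1.21 (1.12 to 1.32). Likewise Kifc1, whose territory holds a peak of 179 reads at the promoter of Daxx, went from 1.37 to 1.01 (0.885 to 1.16). The whole territory of Kifc1 had the lowest input of the members, 0.267 reads per kb and per 1000000 reads of the library, beside 0.365 for FLI1. Kif2a kept 1.41 (1.31 to 1.51), with 8 FLI1 summits in its territory, the strongest of 124 reads in an intron.

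Kif18a had the only territory at 1.5-fold or more for RUNX1, beside 2.37% of all genes, with a ratio of 1.55 that became 1.47 (1.24 to 1.73) without the starts of other genes, including that of Mettl15, which coincides with its own. No RUNX1 summit was called in it. The input of Kif18a was 0.332 reads per kb and per 1000000 reads of the library, lower than that of all members but Kifc1. RUNX1 at Kif18a was 0.516 by this measure, under the 0.566 of Kif2a and the 0.543 of Kif22 among others. Low input thus enters the RUNX1 ratio of Kif18a, which did not have the most RUNX1 reads per kb. For Kif2b, a gene far from others on chromosome 11, the territory ratio was 1.25 (1.10 to 1.42) for FLI1 and 1.39 (1.07 to 1.79) for RUNX1 without a summit of either factor. Its input, 0.338 reads by the same measure, was among the lowest of the members, beside 0.423 for FLI1 and 0.470 for RUNX1.

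**Figure D4:**
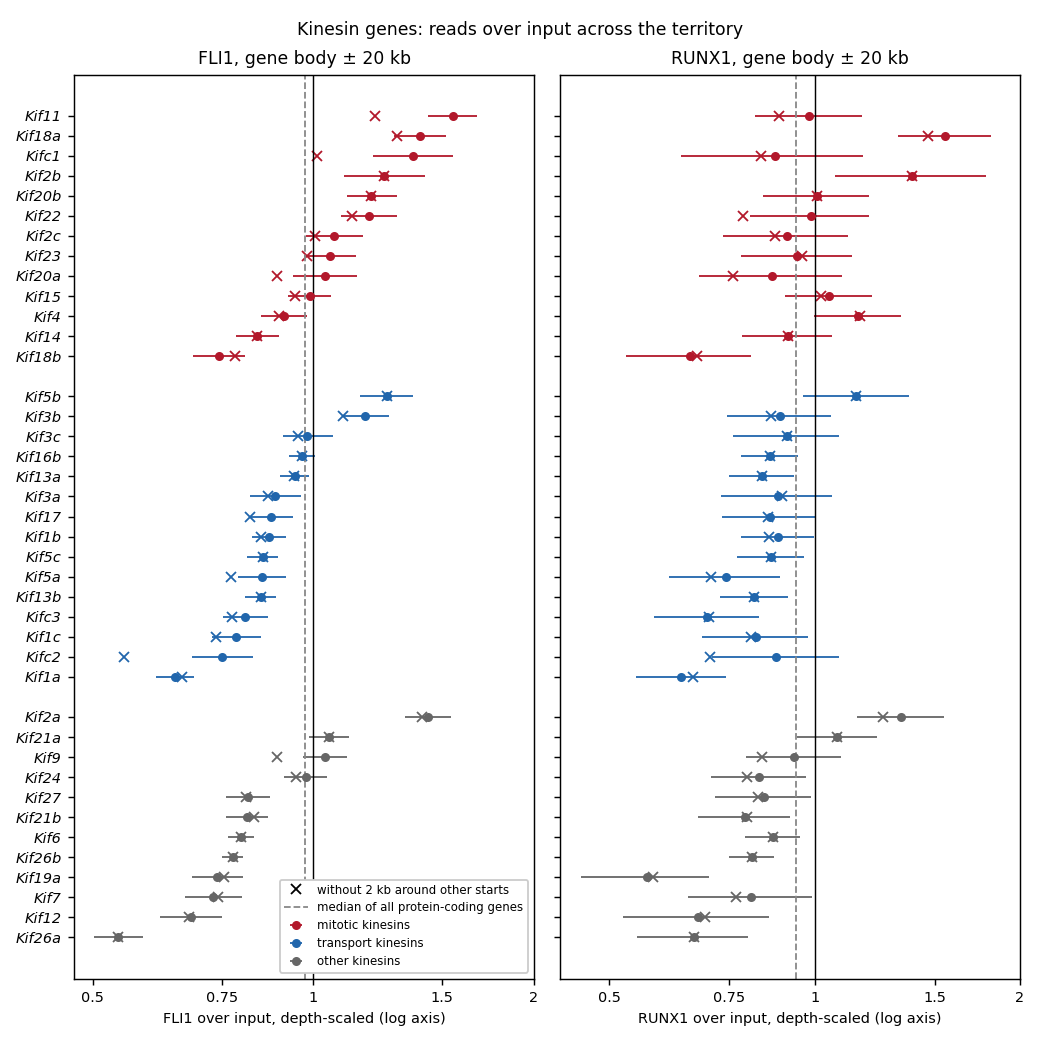
Depth-scaled ratio of FLI1 (left) and RUNX1 (right) reads to input over the gene body and 20 kb to either side of each of the 40 kinesin genes, on log axes, with exact 95% counting intervals. Crosses give the ratio without the reads within 2 kb of other genes' starts, and the dashed line is the median of all protein-coding genes. The cross of Kif11 lies at 1.21 and its point at 1.55, and most transport and other kinesins lie under 1.

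In all, 133 FLI1 summits lay in kinesin territories, 59 of them in a promoter of any coding gene, 30 in introns, 9 in exons and 35 between genes. At least 1 was present at 12 mitotic, 15 transport and 9 other kinesins, 36 in all, beside 71.1% of all genes and 90.9% of CpG-rich genes. Of the 133, 56 were nearer to the start of another gene than to a kinesin start. Kif13a had the most, 12, most of them weak, with 25 to 64 reads except for the 158 reads at 2529 bp upstream. Kif3b and Kif2a had 8 each, and 3 of those of Kif3b lay at or in Asxl1, a chromatin regulator. The 101 summits beyond 2 kb of a kinesin TSS had a median of 47 reads, beside 44 over all FLI1 summits.

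Partners of the motors were counted by the same measures. Of a list of 11 spindle and midbody genes, 10 had a FLI1 summit within 2 kb of the TSS, beside 44% of all and 72.4% of CpG-rich genes, with a median FLI1 over input of 1.76. The highest were Incenp at 3.49, the scaffold of the chromosomal passenger complex that Kif20a carries, and Ect2 at 3.02, the exchange factor that centralspindlin brings to the midzone. The exception was Cdca8, another subunit of the passenger complex, at 0.544. Cenpe, at 2.16, is on this list although it encodes a mitotic kinesin itself, since its symbol lies outside the rule for members. Of 9 light chains and cargo adaptors, 5 had a summit, with a median of 1.30, from 0.930 at the light chain Klc1 to 2.44 at Kifap3, which binds the Kif3a and Kif3b motor. Of 8 subunits of dynein and dynactin, which run toward the minus end, 7 had a summit, with a median of 1.58. CpG-rich promoters were found at 10 of the spindle and midbody genes, 8 of the adaptors and 7 of the dynein and dynactin subunits.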

How the data were processed

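Alignment by the authors was with Bowtie on mm9, and by their account the files leave out reads with several matches and repeats of a read. They deposited read positions (chromosome, start, end, strand), which carry no unit. The submitters' processing notes also name SICER 1.1 and MACS 1.4. In the input 3.24% of reads repeat a position, and these repeats were left out here, as were mitochondrial reads. Fragment lengths of 126 bp (FLI1), 159 bp (RUNX1) and 158 bp (input) came from the distance between strands. Reads were counted at their fragment centres with numpy 2.4.6, scaled to library totals and divided by input. Peaks followed the scheme of MACS 1.4 (windows of 2 fragment lengths, Poisson p under 1e-05, effective genome size 1870000000 bp), except that input rates were always brought to the ChIP library's read total. For RUNX1 this departs from the default of MACS 1.4, which scales the smaller library up. Both steps were tested on simulated data, with reads spread evenly apart from planted sites. Biases of promoters or of the input were not part of that test.

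The members and lists were chosen with earlier results of these data known. Genes described with the reads of each library were, per class, the 3 highest and 2 lowest in FLI1 over input at the TSS, those with a RUNX1 summit and those holding the 5 FLI1 peaks of smallest p. No Kif25 gene carries that symbol in the annotation used. The symbols Kif4-ps, Kifap3 and Kifc5b fell outside the rule. Sequences are from mm9. The alternatives tried are given with the limits.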

Additional observations from a re-analysis of the deposited data

How the results depend on the processing

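Of 89 alternative values, 71 stayed within 1.5 times the count or, for a median ratio, between the medians of the members' lower and upper bounds. With FLI1 thinned to the RUNX1 depth, FLI1 peaks fell from 42081 to 6293, and summits were found in the territories of 15 kinesins (31.4% of all genes) and within 2 kb of the TSS of 6 (12.9% of all genes), namely 2 of 13 mitotic, 3 of 15 transport and 1 of 12 other kinesins, so that mitotic no longer stood above transport kinesins in this count. For RUNX1 the p threshold of 1e-10 left 0 kinesins with a summit within 2 kb and 0 territories, a fragment length of 150 bp left 1 (Kif9), and scaling the smaller library up gave 20 and 40, beside 42.2% and 93.1% of all genes and with 184948 peaks in place of 997. With 50 kb to either side, RUNX1 summits lay in 7 territories, beside 9.25% of all genes. The counts of territories at 1.5-fold or more, 1 each, became 0 for FLI1 with 10 kb, with 50 kb and without other genes' starts, and 0 for RUNX1 with 50 kb and without other genes' starts. The mitotic and transport medians of FLI1 were 3.23 and 1.85 within 1 kb of the TSS and 5.07 and 1.56 over their own flanks. With FLI1 thinned to the RUNX1 depth they were 1.91 and 1.59, much closer to each other. The thinning, for these medians and for the summits above, was a random draw made once. How far the values vary between draws was not measured. With Kif3a, Kif3b, Kif13a, Kif14, Kif16b, Kif20a and Kif23, which have roles in both division and transport, left out, 6 of 11 transport and 9 of 10 mitotic kinesins had a FLI1 summit. Scaled to the median gene, 15 kinesins stood at 1.5-fold or more for FLI1 at the TSS and 10 for RUNX1, beside 27.5% and 23.1% of all genes. The depth of RUNX1 limits every statement on single genes. No paired analysis was possible because each antibody has 1 library.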

Other observations

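The promoters of mitotic kinesins also held sequences known from cell cycle genes. TTTGAA, the core of the cell cycle homology region bound by the DREAM and MuvB complexes, was found on either strand from 250 bp before to 50 bp after the TSS of 7 of 13 mitotic (53.8%), 0 of 15 transport and 2 of 12 other kinesins (16.7%), beside 16.3% of all and 9.96% of CpG-rich promoters. CCAAT, the NF-Y box, was found in 9 of 13 mitotic (69.2%), 6 of 15 transport (40.0%) and 5 of 12 other kinesins (41.7%), beside 38.0% of all promoters. Both sequences were chosen after the data were seen, and a match of letters does not show that a factor was bound.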
